A study of Homo sapiens with 4 samples.

Results

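The mRNA of NFE2L2, which encodes the transcription factor NRF2, of its repressor KEAP1 and of a panel of antioxidant genes was followed in RCC4 cells after silencing of PML. The panel was NQO1, HMOX1, GCLC, GCLM, TXNRD1, SLC7A11, SRXN1 and TXN. These 10 genes were taken by symbol from the deposited table of read counts, all 10 were found among its 59050 genes, and all 10 passed the filter on low counts that left 16516 genes. RCC4 is an established human clear cell renal cell carcinoma (ccRCC) line without functional VHL. The cells carried a doxycycline-inducible hairpin against PML (shPML#1, written shPML) or a scrambled hairpin (shCtrl) in Tet-pLKO-puro, as puromycin-selected bulk populations rather than clones. Control and silenced cells alike received doxycycline at 100 ng/ml for 96 h. The work was done as 2 experiments, each with its own lentiviral infection, so that shCtrl and shPML have 2 libraries each, and the replicate number of a library was read as its experiment.

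NRF2 is held by KEAP1 for ubiquitination by a CUL3 ligase and is degraded in resting cells. Oxidants and electrophiles modify KEAP1, and NRF2 then accumulates, pairs with small MAF proteins and binds antioxidant response elements near genes of glutathione synthesis, thioredoxin reduction, quinone reduction and heme breakdown. Since this control acts mostly on the NRF2 protein, the mRNA of the targets is the usual readout of the pathway, and mutations that release NRF2 are known mainly from papillary rather than clear cell kidney tumors. PML, the scaffold of PML nuclear bodies, is itself known to respond to oxidative stress.

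Among the 10 genes, GCLM was the one called in PML-silenced cells, where its mRNA was lower, and it was called with the experiment as a block but not without it. TXN, HMOX1, NQO1 and TXNRD1 were lower than their control in both experiments by less, and none of them was called. NFE2L2 and KEAP1 stayed close to their control level in both experiments, and so did GCLC, the catalytic partner of GCLM. A gene was called when the quasi-likelihood test of edgeR gave an adjusted p under 0.05 and its log2 fold change exceeded 0.5 in size. With the experiment as a block, 0 of the 10 genes were called higher and 1 was called lower. By the same rule 8.57% of all tested genes were called higher and 10.5% lower. Without the block, which was set as the primary fit, 0 of the 10 were called in either direction. The shares of all tested genes were 0.0787% called higher and 0.333% called lower. In that fit 1 of the 10 had an unadjusted p under 0.05, beside 2958 of all 16516 tested genes. DESeq2 without the block called 1 of the 10 lower, beside 6.44% of the genes for which it gave an adjusted p. The median log2 fold change of the 9 members with interpretable counts was -0.10 in either fit, against 0.0096 without and 0.0042 with the block for all tested genes.

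The libraries held between 27781193 and 69870617 counted reads, so that the counting error of a library was at most 3.72% of the value for the members other than SRXN1. The labels of the first shPML and the second shCtrl library had been exchanged in the original record and were later put right there, and the corrected ones were used. PML was at 93.1 and 136 CPM (read counts scaled to library size) in the shCtrl libraries of replicates 1 and 2 and at 54.9 and 87.6 in the shPML libraries. It was thus lower than its own control in each experiment, by 0.76 and 0.63 on the log2 scale, and the groups did not overlap. Its fitted log2 fold change was -0.70 ± 0.11 (SE) with the block, with an adjusted p of 4.19e-07 in edgeR, and -0.69 ± 0.30 without it, with an adjusted p of 0.320. All 7 markers of renal carcinoma cells examined, PAX8 and CA9 among them, were above 1 CPM in every library. Of 11 markers of other cell types, 7 were under 1 CPM in every library, among them 3 (CD3E, UMOD and NPHS1) at 0. The summed level of the 11 markers was 3.47, 0.583, 4.37 and 59.97 CPM in shCtrl replicates 1 and 2 and shPML replicates 1 and 2. Most of the sum in the replicate 1 libraries was ALB, at 3.18 CPM in shCtrl and 3.78 in shPML. ALB was at 0 in both replicate 2 libraries. The high sum of the second shPML library came from CD14 at 42.8 CPM, PTPRC at 12.6 and PECAM1 at 4.11, all 3 of which were at most 0.111 CPM in the other libraries. That library therefore stands apart. Log2 ratios within experiment 1, which do not use its reads, are given beside the members other than SRXN1, and values fitted without it stand beside GCLM, HMOX1 and TXN. The library scaling behind those ratios was computed with all 4 libraries.

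**Figure D1:**
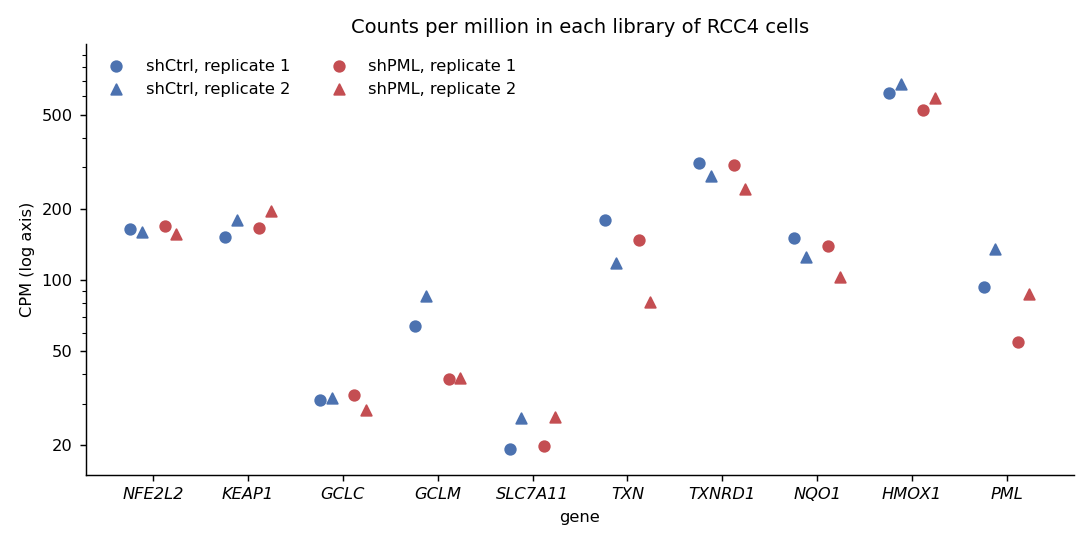
CPM on a log axis for 9 pathway members and PML, with 1 point per library, shCtrl in blue and shPML in red, replicate 1 as circles and replicate 2 as triangles. GCLM, HMOX1 and PML are the genes whose shPML points all lie below their shCtrl points. SRXN1 is not drawn because it had at most 19 reads.

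NFE2L2 (chr2:177230305-177392697, minus strand, GRCh38) was at 163.9 and 159.6 CPM in shCtrl and at 168.9 and 157.6 CPM in shPML. All 4 libraries lay close together, with shPML slightly above its control in experiment 1 and slightly below it in experiment 2 (log2 ratios of 0.04 and -0.02). The fitted log2 fold change was 0.01, with a 95% confidence interval from -0.19 to 0.21 with the block and from -0.35 to 0.38 without it. In edgeR the adjusted p was 0.945 with the block. A change in NFE2L2 mRNA beyond the fold threshold of 0.5 in either direction thus lay outside both intervals. Of its exon bases, 16.5% are shared with AC079305.1 or AC019080.1, which had at most 19 reads in a library.

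KEAP1 (chr19:10486125-10503356, minus strand), the substrate adaptor that delivers NRF2 to the CUL3 ligase, was at 153.1 and 179.2 CPM in shCtrl and at 166.5 and 196.1 CPM in shPML. It was above its own control in both experiments, by 0.12 and 0.13 on the log2 scale, and yet the groups overlapped, because both conditions were higher in experiment 2. The fitted log2 fold change with the block was 0.13 ± 0.10 (SE), with an interval from -0.07 to 0.33 and an adjusted p of 0.378 in edgeR. The ratio of KEAP1 to NFE2L2 reads within a library, which does not depend on how libraries are scaled, was 0.934 and 1.12 in shCtrl and 0.986 and 1.24 in shPML, and these ranges overlapped.

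Glutathione synthesis starts with glutamate-cysteine ligase, a dimer of the catalytic subunit GCLC and the modifier subunit GCLM, which lowers the enzyme's need for glutamate and its feedback inhibition. GCLM (chr1:93885199-93909456, minus strand) was at 63.9 and 85.5 CPM in shCtrl and at 38.0 and 38.6 CPM in shPML, from 3460, 3078, 2727 and 1062 reads. The shPML libraries lay well below both controls and close to each other, at a mean of 38.3 ± 0.415 CPM (SD, n = 2) against 74.7 ± 15.3 CPM in shCtrl. The log2 ratio within an experiment was -0.75 in the first and -1.15 in the second. With the block GCLM fell by 0.94 ± 0.12 on the log2 scale (SE), with an interval from -1.18 to -0.70 and an adjusted p of 2.91e-09 in edgeR. With 1 residual degree of freedom, that p leans on variance pooled over genes and not on the spread among replicates alone. The fit without the block gave a log2 fold change of -0.96 ± 0.19, an unadjusted p of 0.00323 and an adjusted p of 0.0895, which did not pass. DESeq2 without the block called GCLM lower as well, with an adjusted p of 0.0021, as it did 6.44% of the genes for which it gave an adjusted p. Without the second shPML library the edgeR log2 fold change was -0.97, with an adjusted p of 0.285. The condition accounted for 91.0% of the variation of log2 CPM among the 4 libraries, more than for any other member.

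GCLC (chr6:53497341-53548206, minus strand) was at 31.2 and 31.9 CPM in shCtrl and at 32.7 and 28.3 CPM in shPML. The groups overlapped, and the direction differed between the experiments, with log2 ratios of 0.07 and -0.17. The fitted log2 fold change with the block was -0.05 ± 0.12 (SE), with an interval from -0.30 to 0.20 and an adjusted p of 0.820 in edgeR. GCLM and GCLC mRNA therefore did not move in proportion. Within a library, and per exon base, GCLM was 2.65 and 3.47 times the level of GCLC in shCtrl and 1.51 and 1.77 times in shPML. The shPML ratios were below both controls, and the change within an experiment was -0.82 and -0.97 on the log2 scale. The smallest two-sided p that an exact permutation test allows with 2 libraries per group is 0.333, so no test is given for the ratios.

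**Figure D2:**
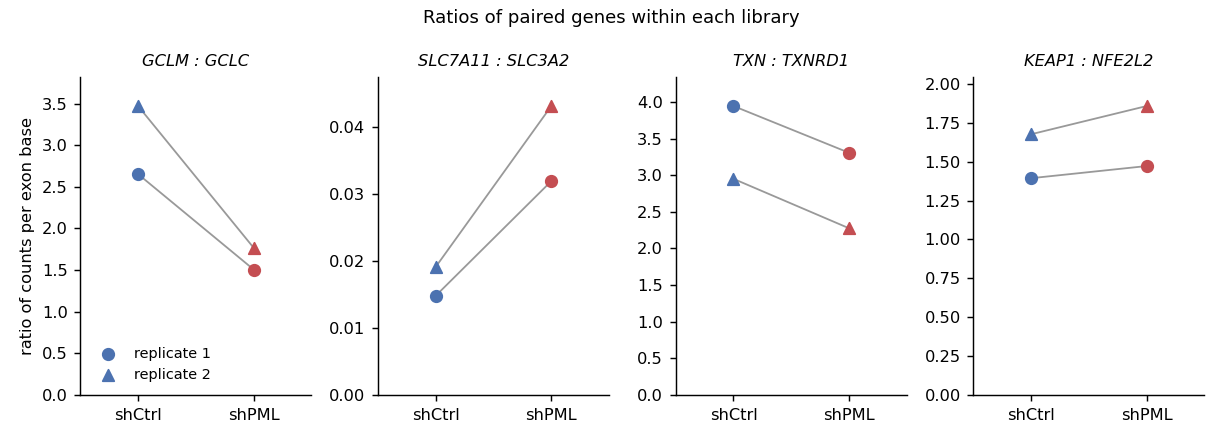
Ratios of counts per exon base between genes of a pair, within each library, with shCtrl in blue, shPML in red, a line joining the libraries of an experiment, and each vertical axis starting at 0. GCLM relative to GCLC is lower and SLC7A11 relative to SLC3A2 is higher in both shPML libraries, whereas the ranges of TXN relative to TXNRD1 and of KEAP1 relative to NFE2L2 overlap.

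Promoter sequence was examined for the core of the antioxidant response element, TGACNNNGC, on both strands, in RefSeq windows of 300 bases (250 before and 50 after a gene's start, GRCh38.p14). RefSeq windows were found for 8 of the 10 members, and not for HMOX1 and SLC7A11. Of their 11 windows, 4 held the motif, in GCLM, TXNRD1 and KEAP1, as did 13.3% of all 35116 windows searched. The GCLM and first TXNRD1 windows are shown as the promoters of a member that was called and of one that was not, up to 10 bases past the start, with the motif in capitals on the strand of the gene. They span chr1:93909421-93909680 (minus strand) and chr12:104215529-104215788 (plus strand).
GCLM: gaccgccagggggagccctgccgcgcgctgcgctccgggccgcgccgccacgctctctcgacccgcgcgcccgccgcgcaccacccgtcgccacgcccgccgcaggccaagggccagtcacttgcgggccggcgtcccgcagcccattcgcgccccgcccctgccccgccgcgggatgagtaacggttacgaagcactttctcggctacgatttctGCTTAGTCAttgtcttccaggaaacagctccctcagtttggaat
TXNRD1: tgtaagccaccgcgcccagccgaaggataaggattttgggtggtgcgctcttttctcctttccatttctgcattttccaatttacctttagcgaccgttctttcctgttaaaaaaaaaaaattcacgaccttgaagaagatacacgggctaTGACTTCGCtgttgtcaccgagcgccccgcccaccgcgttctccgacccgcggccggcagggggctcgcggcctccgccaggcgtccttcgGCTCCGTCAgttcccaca
The motif of GCLM begins 34 bases upstream of the RefSeq start (93909430) and reads in the direction opposite to the gene. The counted gene starts further upstream, at 93909456, which lies within the motif (93909456-93909464). The first TXNRD1 window holds the motif at 99 bases upstream, in the direction of the gene, and at 8 bases upstream, in the opposite direction. The second TXNRD1 window holds it at 102 bases upstream of that window's start, in the opposite direction. Only 1.13% of all windows held the motif more than once. The second KEAP1 window also held it 2 times, at 54 and 31 bases upstream of that window's start. The match at 31 bases has the same letters and direction as that of GCLM. A match describes these letters and does not show binding. The windows reach 250 bases before a start, so elements further upstream were not searched. The mRNAs of TXNRD1 and KEAP1, each with a window that holds more matches than that of GCLM, were not called. Whether the matches bear on mRNA level was not tested.

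SLC7A11 (chr4:138164097-138242349, minus strand) encodes the transport subunit of the cystine and glutamate exchanger xCT, which brings in the cystine needed for glutathione. It was at 19.3 and 26.0 CPM in shCtrl and at 19.8 and 26.3 CPM in shPML. Libraries of an experiment were nearly equal, with log2 ratios of 0.04 in experiment 1 and 0.01 in experiment 2. The experiments differed, so that 99.5% of the variation lay between experiments and 0.400% between conditions. The log2 fold change with the block was 0.03 ± 0.13 (SE), with an interval from -0.23 to 0.29 and an adjusted p of 0.910 in edgeR.

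The other chain of xCT, the heavy chain SLC3A2 that anchors it and other amino acid transporters at the membrane, was at 358.3 and 374.5 CPM in shCtrl and at 170.9 and 167.5 CPM in shPML. SLC3A2 fell by 1.11 ± 0.10 on the log2 scale with the block (adjusted p of 2.62e-14 in edgeR) and did not pass without it (adjusted p of 0.0568). Within a library the ratio of SLC7A11 to SLC3A2 reads was 0.0538 and 0.0695 in shCtrl and 0.116 and 0.157 in shPML, a log2 increase of 1.11 and 1.17 in the 2 experiments. This ratio was chosen after the values of SLC3A2 were seen.

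TXN and TXNRD1 encode cytosolic thioredoxin, which reduces protein disulfides, and the NADPH-dependent reductase that recycles it. TXN (chr9:110243810-110256507, minus strand) was at 180.2 and 118.6 CPM in shCtrl and at 147.8 and 81.1 CPM in shPML. It was below its control in each experiment, by 0.29 and 0.55 on the log2 scale, and the groups overlapped because experiment 2 was lower in both conditions. TXN thus had 73.8% of its variation between experiments and 23.9% between conditions. With the block the log2 fold change was -0.41 ± 0.10 (SE) and the adjusted p 0.00128 in edgeR, past the p threshold but short of the fold threshold. Without the block the adjusted p was 0.655, and the log2 fold change was -0.89 without the first shPML library and -0.015 without the second.

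TXNRD1 (chr12:104215779-104350307, plus strand) was at 312.8 and 275.4 CPM in shCtrl and at 306.1 and 244.0 CPM in shPML. The groups overlapped, and the log2 ratio was -0.03 in experiment 1 and -0.17 in experiment 2. Its log2 fold change with the block was -0.10, with an interval from -0.30 to 0.09 and an adjusted p of 0.478 in edgeR. The ratio of TXN to TXNRD1 reads was 0.576 and 0.431 in shCtrl and 0.483 and 0.332 in shPML, lower in shPML within each experiment but overlapping between the groups.

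SRXN1 (chr20:646615-653370, minus strand), sulfiredoxin, which restores overoxidized peroxiredoxins, had 0 and 19 reads in shCtrl and 1 and 13 in shPML. The reads differed between the experiments and not visibly between the conditions. Of its 2698 exon bases, 2292 are shared with AL121758.1 on the same strand, which had 0 reads in every library. How the counting treated reads in the shared part is not known, and whether this set the low count was not tested. No direction is given for SRXN1.

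NQO1 (chr16:69706996-69726668, minus strand), a quinone reductase and the most used marker of NRF2 activity, was at 150.3 and 125.6 CPM in shCtrl and at 140.2 and 102.8 CPM in shPML. It was below its control in each experiment, by 0.10 and 0.29 on the log2 scale, with overlapping groups. The log2 fold change with the block was -0.19 ± 0.10 (SE), with an interval from -0.40 to 0.01 and an adjusted p of 0.164 in edgeR. Of its exon bases, 20.2% lie opposite AC092115.2, which had at most 14 reads.

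HMOX1 (chr22:35381096-35394207, plus strand), heme oxygenase 1, breaks heme down to biliverdin, iron and carbon monoxide, and is repressed by BACH1 as well as driven by NRF2. It was at 621.3 and 676.8 CPM in shCtrl and at 524.1 and 588.3 CPM in shPML. The shPML libraries were both lower than either control, by 0.25 and 0.20 on the log2 scale within the experiments. Only GCLM and HMOX1 among the 10 members showed this separation, which 24.9% of all tested genes showed downward and 23.1% upward. The log2 fold change with the block was -0.22 ± 0.09 (SE), with an interval from -0.41 to -0.04, an unadjusted p of 0.0187 and an adjusted p of 0.0593 in edgeR, which did not pass. The edgeR fit without the block gave an interval from -0.62 to 0.17 and an adjusted p of 0.548. Without the second shPML library, the one with CD14 and PTPRC reads, the log2 fold change was -0.31.

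**Figure D3:**
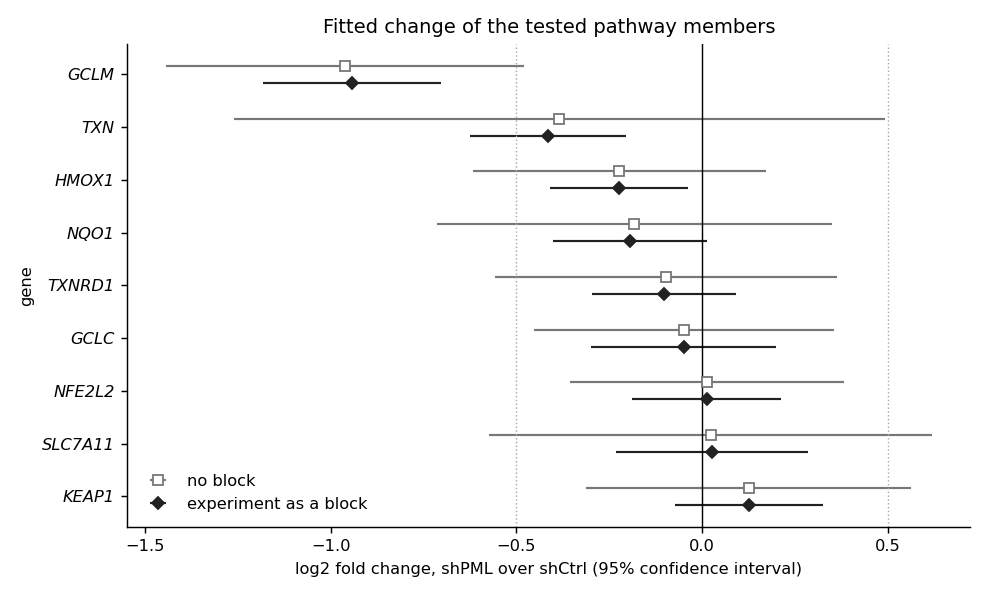
Fitted log2 fold change of shPML over shCtrl with its 95% confidence interval for 9 pathway members, without (open squares) and with (filled diamonds) the experiment as a block, with dotted lines at the fold threshold of 0.5. GCLM is the only member whose interval with the block, from -1.18 to -0.70, lies wholly beyond the threshold.

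Per length of exon, the members spanned a wide range of control levels. HMOX1 stood highest at 418 ± 25.3 CPM per kilobase (SD, n = 2), followed by TXN at 203 ± 59.0. KEAP1 at 60.1 ± 6.68 and TXNRD1 at 58.3 ± 5.24 could not be ordered, since their libraries overlapped. Below them came NQO1 at 48.5 ± 6.15, NFE2L2 at 39.2 ± 0.748, GCLM at 15.2 ± 3.11, GCLC at 4.96 ± 0.0774 and SLC7A11 at 2.35 ± 0.494 CPM per kilobase. Neighbors in this second run did not overlap in the 2 shCtrl libraries. In shPML the mean of GCLM was 7.81 ± 0.0845 CPM per kilobase, still above that of GCLC at 4.80 ± 0.489.

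The genes most like NFE2L2 over the 4 libraries, by the Euclidean distance between centered log2 CPM, were PDIA5 (0.0196), CCDC12 (0.0255) and GUF1 (0.0256), but 3292 genes lay within a distance of 0.3. Those most like GCLM were TAF9B (0.0551), DEK (0.0624) and GTF2A2 (0.0643), with 236 genes within 0.3. DEK, a chromatin protein, was at 288 and 380 CPM in shCtrl and at 168 and 164 in shPML.

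To place the members in their pathway, 6 lists of related genes were read from the same fit. Together they held 89 genes, of which 77 were tested. With the block 6 were called higher and 10 lower, beside 8.57% and 10.5% of all tested genes. Their median log2 fold change with the block was -0.02, and 26.0% of them had both shPML libraries below both controls and 24.7% above, close to the 24.9% and 23.1% of all tested genes. Without the block edgeR called 0 of the 77. In that fit 9 rising and 9 falling genes had an unadjusted p under 0.05, beside 1289 and 1669 of all 16516 tested genes. DESeq2 without the block called 4 higher and 5 lower, beside 577 and 898 of all tested genes.

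Regulators and partners of NRF2 held no called gene, beside 8.57% of all tested genes called higher and 10.5% lower with the block. None of the 12 genes, which include CUL3, the small MAF proteins, BACH1, SQSTM1 and GSK3B, was called by edgeR in either fit or by DESeq2 without the block, and none had an unadjusted p under 0.05 without the block. Their log2 fold changes without the block ran from -0.23 (PGAM5) to 0.23 (MAFF). CUL3, the scaffold of the ligase that KEAP1 serves, was at 68.5 and 68.8 CPM in shCtrl and at 74.6 and 72.7 in shPML. GSK3B, a kinase that marks NRF2 for degradation independently of KEAP1, was at 58.3 and 64.9 CPM in shCtrl and at 67.7 and 72.6 in shPML. Both had shPML libraries above the controls, with adjusted p of 0.551 and 0.219 in edgeR with the block.

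The glutathione list moved in both directions, with a median log2 fold change of 0.07 with the block. In that fit 2 of 18 tested genes were called higher and 2 lower, beside 8.57% and 10.5% of all tested genes. Without the block that median was 0.08, and it ran from -0.12 (without the first shPML library) to 0.21 (without the first shCtrl library). SLC3A2 was described above. GLO1, the glutathione-dependent enzyme that removes methylglyoxal, fell from 158.0 and 179.6 CPM in shCtrl to 99.2 and 97.0 CPM in shPML, by 0.78 on the log2 scale (adjusted p of 1.13e-08 with the block in edgeR and 0.0889 without). GGT1, which cleaves extracellular glutathione, rose from 119.3 and 119.9 CPM to 183.8 and 219.3 CPM, with a log2 fold change of 0.75 (adjusted p of 2.07e-08 with the block and 0.105 without). The fourth, named after its value was seen, was GPX4, the peroxidase of membrane lipids, with a log2 fold change of 0.64 (adjusted p of 1.5e-07 with the block in edgeR and 0.210 without). GSR, which regenerates reduced glutathione, was not called, at -0.25 with an adjusted p of 0.0623.

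In the thioredoxin and peroxiredoxin list 3 of 13 tested genes were called higher with the block and 0 lower, beside 8.57% and 10.5% of all tested genes. The list's median in that fit was 0.08. The median was 0.10 without the block and changed sign when a library was left out, to -0.12 without the first shPML and -0.042 without the second shCtrl library. TXNIP, the inhibitor that binds reduced thioredoxin, rose from 166.5 and 136.4 CPM in shCtrl to 258.7 and 212.2 CPM in shPML, a log2 fold change of 0.64 (adjusted p of 5.05e-07 with the block in edgeR and 0.180 without). SESN1, a sestrin induced by p53, rose from 26.6 and 16.7 CPM to 43.7 and 35.4 CPM, with a log2 fold change of 0.89 (adjusted p of 6.61e-08 and 0.193). PRDX5, a peroxiredoxin of mitochondria and peroxisomes, rose from 193.3 and 189.7 CPM to 278.0 and 274.6 CPM, with a log2 fold change of 0.53 (adjusted p of 1.55e-05 and 0.156). PRDX1, which NRF2 also drives, was not called, at -0.15 with an adjusted p of 0.249.

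Among enzymes of NADPH supply 1 of 7 was called lower and 0 higher with the block, beside 10.5% and 8.57% of all tested genes. IDH1, cytosolic isocitrate dehydrogenase, fell from 90.8 and 77.1 CPM in shCtrl to 60.2 and 53.0 CPM in shPML, by 0.57 on the log2 scale (adjusted p of 4.84e-05 with the block in edgeR and 0.178 without). PGD of the pentose phosphate pathway was at 176.4 and 178.8 CPM in shCtrl and at 211.9 and 229.8 CPM in shPML, a log2 fold change of 0.31 that stayed under the fold threshold. ME1, malic enzyme, was at 95.3 and 96.4 CPM against 84.9 and 82.6 CPM and did not pass (adjusted p of 0.182 with the block).

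In the detoxification, heme and iron list 6 of 21 tested genes were called lower and 0 higher with the block, beside 10.5% and 8.57% of all tested genes. Without the block edgeR called 0 of them. DESeq2 without the block called 3 lower, beside 6.44% of the genes for which it gave an adjusted p. The median log2 fold change was -0.26 with the block and -0.24 without, and -0.12 without the block when the second shCtrl library was left out. FECH, which inserts iron into heme in the last step of its synthesis, fell from 38.0 and 45.0 CPM in shCtrl to 15.7 and 13.7 CPM in shPML, by 1.48 on the log2 scale (adjusted p of 3.28e-14 with the block in edgeR and 0.0520 without). UGT1A6, a glucuronosyltransferase, fell from 26.2 and 28.0 CPM to 13.5 and 9.42 CPM (adjusted p of 1.86e-10 and 0.0811), and TRIM16L from 59.7 and 68.2 CPM to 43.1 and 37.5 CPM (adjusted p of 1.06e-05 and 0.133). UGT1A6 shares 58.1% of its exon bases with other genes on its strand, and TRIM16L is a near copy of TRIM16, so that both values are uncertain.

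The remaining called genes of that list, named after their values were seen, were CBR3, FTH1 and SLC48A1. CBR3 and SLC48A1 had log2 fold changes of -0.52 and -0.57 in edgeR with the block. Neither passed in DESeq2 with the block (adjusted p of 0.0648 and 0.253). The log2 ratios of SLC48A1 within the experiments were -0.87 and -0.26. Of the exon bases of CBR3, 71.1% lie opposite another gene. FTH1, the ferritin heavy chain that stores iron, was at 1903 and 2703 CPM in shCtrl and at 784 and 1539 CPM in shPML, while FTL, the light chain, was at 2923 and 2374 CPM against 3115 and 3104 CPM. FTH1 fell by 1.05 on the log2 scale with the block (adjusted p of 2.13e-14 in edgeR), and FTL was not called, with a log2 fold change of 0.24. In edgeR without the block FTH1 had an adjusted p of 0.249 and did not pass. The ratio of FTH1 to FTL reads was 0.651 and 1.14 in shCtrl and 0.252 and 0.496 in shPML, below the controls in both experiments. Of the exon bases of FTH1, 57.6% lie opposite another gene, and FTH1 has processed copies in the genome, so this value is uncertain as well. The transporters ABCC3 and ABCC4 of this list went the other way without being called, with log2 fold changes of 0.42 and 0.45.

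Of the superoxide dismutases, catalase and repair enzymes, 6 were tested. With the block 1 was called higher and 1 lower, beside 8.57% and 10.5% of all tested genes. SOD2, the manganese superoxide dismutase of mitochondria, which is also induced by NF-kB, rose from 469.0 and 495.8 CPM in shCtrl to 1068 and 1122 CPM in shPML, a log2 fold change of 1.18 (adjusted p of 2.04e-16 with the block in edgeR and 0.0522 without). MSRB1, a methionine sulfoxide reductase, fell from 51.4 and 66.1 CPM to 38.6 and 42.1 CPM, by 0.53 on the log2 scale (adjusted p of 0.000281 with the block in edgeR and 0.222 without). CAT, catalase, was at 66.2 and 68.8 CPM in shCtrl and at 64.5 and 60.8 CPM in shPML and was not called (adjusted p of 0.541 with the block). SOD1, the cytosolic dismutase, was at -0.05 and was not called.

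**Figure D4:**
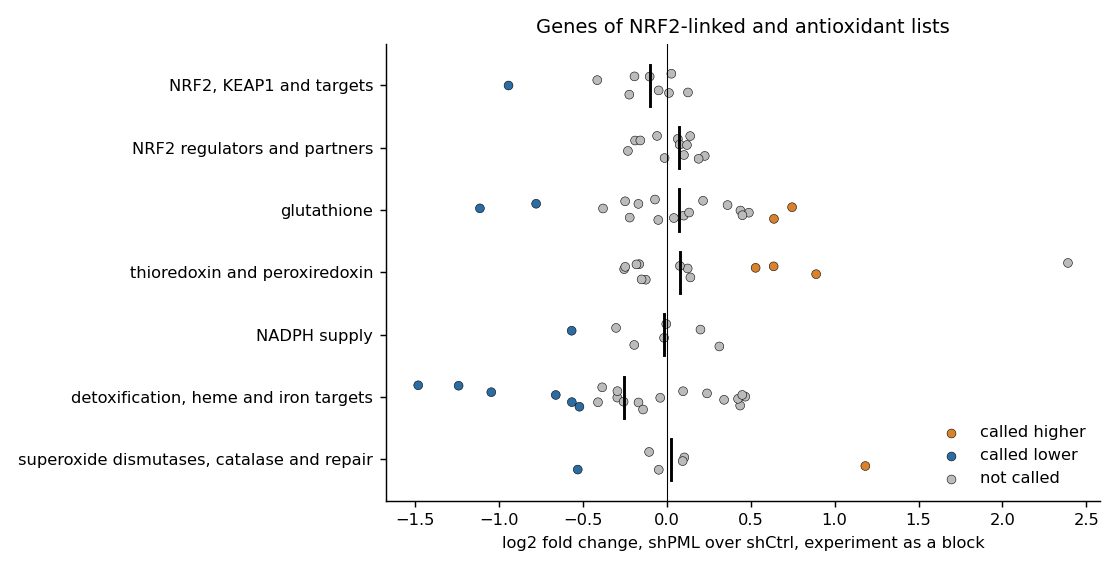
Log2 fold change of shPML over shCtrl with the experiment as a block for each tested gene (1 point per gene, spread vertically for visibility), by list, with the list's median as a bar and called genes in color. Of the members only GCLM is called, the regulators hold no called gene, and the 6 called genes of detoxification, heme and iron all lie below 0. The grey point near 2.4 is SESN3, which had at most 26 reads.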

How the data were processed

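Stranded mRNA libraries of shCtrl and shPML cells were sequenced from a single end. The authors trimmed the reads (Trimmomatic 0.39), mapped them to GRCh38 with STAR and assigned them to Gencode genes with featureCounts 1.6.4. The deposited values are raw read counts per gene, without normalization. The Gencode release and the strand setting of the counting are not given in the sources used here, so reads of overlapping genes may have been left out or shared. Columns were matched to libraries by name, and the unnumbered shCtrl and shPML columns were read as replicate 1, since their counterparts are marked as replicate 2.

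Testing used edgeR 4.0.16 in R 4.3.3 (filterByExpr, TMM, quasi-likelihood test of shPML against shCtrl over all 16516 genes, Benjamini-Hochberg adjustment) and tables were made in Python 3.11.15 with pandas 2.3.3. The thresholds for a call were 0.05 for the adjusted p and 0.5 for the size of the log2 fold change. CPM were computed with TMM library sizes, log2 CPM with a prior count of 0.5, and per-length levels with the exon bases of the counted gene. The experiment entered as a block in a second fit. The methods of the study describe independent infections for its experiments, and deviations of same-numbered libraries from their group means had a correlation of 0.544 across genes, so the numbers were taken as pairs. The common dispersion was 0.0813 without and 0.0137 with the block. Residual degrees of freedom were 2 without and 1 with the block. All p values, standard errors and intervals of the block fit therefore lean on variance pooled over genes. Each edgeR SE was the size of the log2 fold change over the square root of the test's F statistic. Its 95% confidence interval used the prior and residual degrees of freedom together. DESeq2 1.42.0, RLE scaling, other filters, other fold thresholds and each library left out in turn were the alternatives. The members and the lists were chosen with earlier results of these data known. The genes named are the 10 members, PML, up to 3 genes per list with the smallest unadjusted p of the fit without the block among those with non-overlapping groups, any list gene called in that fit, and the 3 genes nearest to NFE2L2 and to GCLM. Genes named outside this rule to show a list's range or a partner were picked after their values were seen. The lists come from general knowledge of the pathway. Promoter sequences are from RefSeq.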

Additional observations from a re-analysis of the deposited data

How the results depend on the processing

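The number of genes called depended strongly on the fit, and the direction of the GCLM change did not. Without the block edgeR called 13 genes higher and 55 lower. The replicate block gave 1415 and 1735, DESeq2 577 and 898, DESeq2 with the replicate block 1109 and 1386, RLE scaling 0 and 0 (with 2967 genes at an unadjusted p under 0.05), no filter 891 and 946, at least 10 counts in every library 53 and 144, and that filter with the replicate block, an alternative chosen after seeing the data, 1458 and 1671. Leaving out 1 library gave 0 to 187 higher and 0 to 61 lower. Without the first shPML library 187 were higher and 61 lower, and without any of the other libraries both counts were 0. The cause was not tested. These fits leave 1 library in a group, which is assumed to vary like the other group. Members called lower numbered 0 without the block and 1 (GCLM) with the replicate block, in DESeq2 with or without it, without a filter, and with the added filter and block. Other pathway genes called higher and lower numbered 6 and 10 with the replicate block, 4 and 5 in DESeq2, 7 and 8 in DESeq2 with the replicate block, 4 and 6 without a filter, 1 and 2 at 10 counts, and 7 and 10 at 10 counts with the replicate block. Leaving out 1 library gave 0 to 0 calls for members and for other pathway genes in each direction. The log2 fold change of GCLM ran from -1.14 to -0.74 and that of PML from -1.06 to -0.40 over the libraries left out. Values near 0 changed sign when 1 library was left out, with ranges from -0.047 to 0.063 for NFE2L2 (-0.013 without the second shCtrl library), from -0.43 to 0.024 for NQO1, from -0.17 to 0.052 for GCLC, from -0.28 to 0.059 for TXNRD1 (0.014 without the first shCtrl library) and from -0.19 to 0.25 for SLC7A11 (-0.16 without the first shCtrl library). The replicate block changed no call of a member other than GCLM. Of the 66 list medians recomputed, 22 moved from the value without the block. A median was taken to move when it shifted by at least the SD of the list's median log2 ratios in the 2 experiments. That limit differed between lists. The medians of the regulator, glutathione, thioredoxin, NADPH and superoxide dismutase lists changed sign when 1 library was left out (-0.023 to 0.097, -0.12 to 0.21, -0.12 to 0.12, -0.17 to 0.088 and -0.17 to 0.17), and that of the thioredoxin list was -0.0099 at 10 counts with the replicate block. That of the detoxification list stayed negative (-0.25 to -0.12). SRXN1 is the member whose read counts were too low to give a direction.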
